A study of Mus musculus with 6 samples.

Results

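Sphingosine-1-phosphate (S1P) genes were read in liver endothelial cells (ECs) of young and aged mice. The set was defined by gene symbol and held 10 genes of the 24421 in the deposited count table: the receptors S1pr1, S1pr2 and S1pr3, the sphingosine kinases Sphk1 and Sphk2, the exporter Spns2, the plasma carrier Apom, the lyase Sgpl1, and the phosphatases Sgpp1 and Ppap2b (Plpp3 in current nomenclature). All 10 passed the filter on low counts. CD31+CD45- cells were sorted from livers of wild-type C57BL/6J mice, and bulk RNA was sequenced from 3 young samples at 10 weeks of age and 3 aged samples at 127, 131 and 136 weeks. The aged samples thus differ in age among themselves, no group was treated, and each RNA pools many sorted ECs of all liver vessels. The labels do not say that the young samples came from separate mice, so the p-values measure the spread between these samples.

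S1P is a lipid mediator that is held at high concentration in blood and lymph and at low concentration inside tissues. Sphingosine, released from ceramide, is phosphorylated by the 2 kinases, S1P leaves ECs through Spns2, and high-density lipoprotein carries it bound to apolipoprotein M (Apom). On ECs the Gi-coupled receptor S1pr1 promotes adherens junctions and barrier function, whereas S1pr2 and S1pr3 also couple to other G proteins. The signal ends when lipid phosphatases return S1P to sphingosine or when the lyase Sgpl1 cleaves it irreversibly.

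Promoter windows, the 250 bases before an annotated start, were available from RefSeq (GRCm38.p6) for 9 of the 10 genes, all but S1pr1. Those of 3 genes are shown because the kinase Sphk1 had the smallest p of the set, and the phosphatases Sgpp1 and Ppap2b were both low in the 127-week and 136-week samples. Both strands were searched for the letters CACCC (a core recognised by Kruppel-like factors), GGGCGG (the GC box) and TGANTCA (the AP-1 motif), and matches are in capitals. The windows are Sphk1 chr11:116531587-116531836 (plus strand, the second of 5 RefSeq entries), Sgpp1 chr12:75735730-75735979 (minus strand) and Ppap2b chr4:105157097-105157346 (plus strand), each printed 5′ to 3′ on the strand of the gene.
Sphk1: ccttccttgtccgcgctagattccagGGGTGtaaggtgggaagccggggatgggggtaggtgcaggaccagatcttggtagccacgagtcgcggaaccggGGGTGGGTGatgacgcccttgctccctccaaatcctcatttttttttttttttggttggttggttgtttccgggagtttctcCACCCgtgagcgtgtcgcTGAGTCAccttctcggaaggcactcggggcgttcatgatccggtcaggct
Sgpp1: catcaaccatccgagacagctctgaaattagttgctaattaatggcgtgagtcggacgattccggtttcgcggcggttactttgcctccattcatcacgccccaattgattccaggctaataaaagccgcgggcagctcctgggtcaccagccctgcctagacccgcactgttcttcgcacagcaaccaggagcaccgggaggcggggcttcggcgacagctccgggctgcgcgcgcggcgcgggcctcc
Ppap2b: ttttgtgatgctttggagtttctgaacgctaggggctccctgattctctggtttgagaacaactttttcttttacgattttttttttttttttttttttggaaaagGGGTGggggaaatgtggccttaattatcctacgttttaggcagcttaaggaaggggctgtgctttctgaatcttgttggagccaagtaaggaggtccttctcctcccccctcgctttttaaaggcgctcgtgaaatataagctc
The Sphk1 window held 4 CACCC matches, overlapping ones included, and 1 AP-1 match. It was chosen as the entry with the most matches. Of the other 4 Sphk1 entries, 1 held none of the motifs, the other 3 held 3 CACCC matches each, and 1 of these, which overlaps the printed window, held the same AP-1 match. The Ppap2b window held 1 CACCC match, and the Sgpp1 window held none of the 3 motifs. Of 32851 RefSeq windows of the same length, 52% held CACCC, 32.7% GGGCGG and 6.75% TGANTCA. A match describes letters only, and binding was not measured.

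Total counts were 23001556 to 31651817 a sample, so that 3 counts correspond to 0.0947 to 0.135 CPM (counts scaled to library size with TMM factors). The pan-endothelial markers were abundant in every sample, with Pecam1 between 1366 and 1635 CPM and Cdh5 between 241 and 469 CPM. The 5 endothelial markers summed to 6954 to 7483 CPM in young and to 5471, 6405 and 4855 CPM at 127, 131 and 136 weeks. All aged values lay below all young values for 2 of the 5, Kdr and Tek, and 2 others had a higher aged mean, with overlap. Summed sinusoidal markers (Stab1, Stab2, Lyve1, Clec4g, Fcgr2b, Oit3) were 13167 to 14814 CPM in young and 5322 to 8924 CPM in aged samples. Of the 6, 5 were lower in all aged samples than in all young samples. The other, Lyve1, had a higher aged mean with overlap. Lyve1 was at 391 to 671 CPM in young and at 661, 223 and 1506 CPM at 127, 131 and 136 weeks. Summed leukocyte markers were 26.0 to 47.4 CPM in young samples and 141, 26.7 and 449 CPM at 127, 131 and 136 weeks. All 12 leukocyte markers had a higher aged mean, 1 of them without overlap, and Ptprc (CD45, the antigen excluded in the sort) was at 1.17 to 1.70 CPM in young and 7.57, 1.28 and 25.6 CPM in aged samples. Counts on Lars2 and Rn45s, which collect ribosomal reads, made up 1.29% and 0.960% of totals in young sample 3 and the 127-week sample and 4.68% to 5.53% in the other 4. In bulk RNA, fewer cells of a type and less RNA per cell cannot be told apart, and the part of any cell type in the values below was not tested. The part of the ribosomal counts was not tested unless a value is given.

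The 10 genes covered a wide range of levels, from Ppap2b at the top to Apom at the bottom. Levels of different genes were compared per length, as the deposited FPKM (fragments scaled to exon length and to library size). In young liver ECs Ppap2b was first at 569 ± 6.20 FPKM (SD, n = 3), followed by S1pr1 at 241 ± 40.0, Sgpp1 at 134 ± 27.8 and Spns2 at 37.6 ± 2.53 FPKM, with no overlap between neighbours. Sphk2 at 14.9 ± 2.99 and Sgpl1 at 12.9 ± 1.68 FPKM overlapped each other. S1pr3, S1pr2, Sphk1 and Apom closed the order at 2.98 ± 0.790, 2.78 ± 1.01, 1.77 ± 0.727 and 1.27 ± 0.370 FPKM, and each overlapped its neighbour in this low range. The carrier Apom, known as a product of hepatocytes, was at the bottom. In aged liver ECs the first 4 places were held in the same order, with means of 390 ± 184 FPKM for Ppap2b and 198 ± 93.3 FPKM for S1pr1, but these overlapped, as did Sgpp1 at 70.1 ± 44.3 and Spns2 at 48.2 ± 8.44 FPKM. Sphk2 and Sgpl1 overlapped in the aged samples too, both at a mean of 16.5 FPKM. Sphk2 was below Sgpl1 at 127 weeks (7.53 and 14.3 FPKM) and 136 weeks (10.7 and 20.2 FPKM) and above it at 131 weeks. At 131 weeks, however, Sphk2 was the highest of all samples in FPKM (31.4) and the lowest in CPM (20.9), as described below. Sphk1, at 4.76 ± 2.23 FPKM, stood before S1pr2 at 2.81 ± 0.783 FPKM in the aged samples, and their ranges overlapped.

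**Figure D1:**
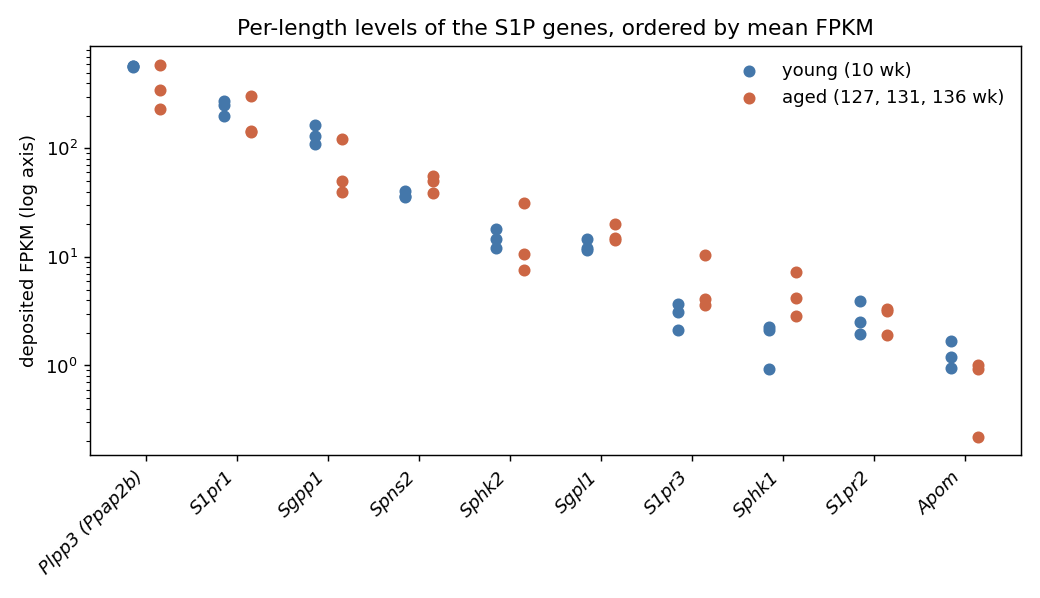
Deposited FPKM of the 10 S1P genes (log axis), ordered by the mean over all samples, with 1 point for each young sample (blue) and each aged sample (orange). Ppap2b averaged 569 FPKM in young ECs and Apom 1.27 FPKM, and the aged points are more widely spread than the young points for Ppap2b, S1pr1 and Sgpp1.

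Young and aged ECs were compared in 1 fit over all 14612 genes that passed the filter (edgeR quasi-likelihood test, Benjamini-Hochberg adjustment, 3 against 3, two-sided). A call needed an adjusted p under 0.05 together with a change of more than 1 on the log2 scale. None of the 10 genes was called, and neither was any other gene (0%). The smallest adjusted p over all genes was 0.0735 and that within the set was 0.256. At an unadjusted p below 0.05 there were 2 of the 10 genes, Sphk1 and Sphk2, against 12.6% of all genes tested. The same 2 genes were the only members whose CPM did not overlap between the ages, against 17.9% of all genes. Both shares are close to the background for a set of 10. Aged means were above young means in 5 genes and below in 5, with a median log2 fold change of -0.12 beside 0.0098 over all genes. DESeq2 called 472 genes (3.23%), among them 1 of the 10, Sphk1, and gave 4 of the 10 an unadjusted p below 0.05, against 14.9% of all genes.

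**Figure D2:**
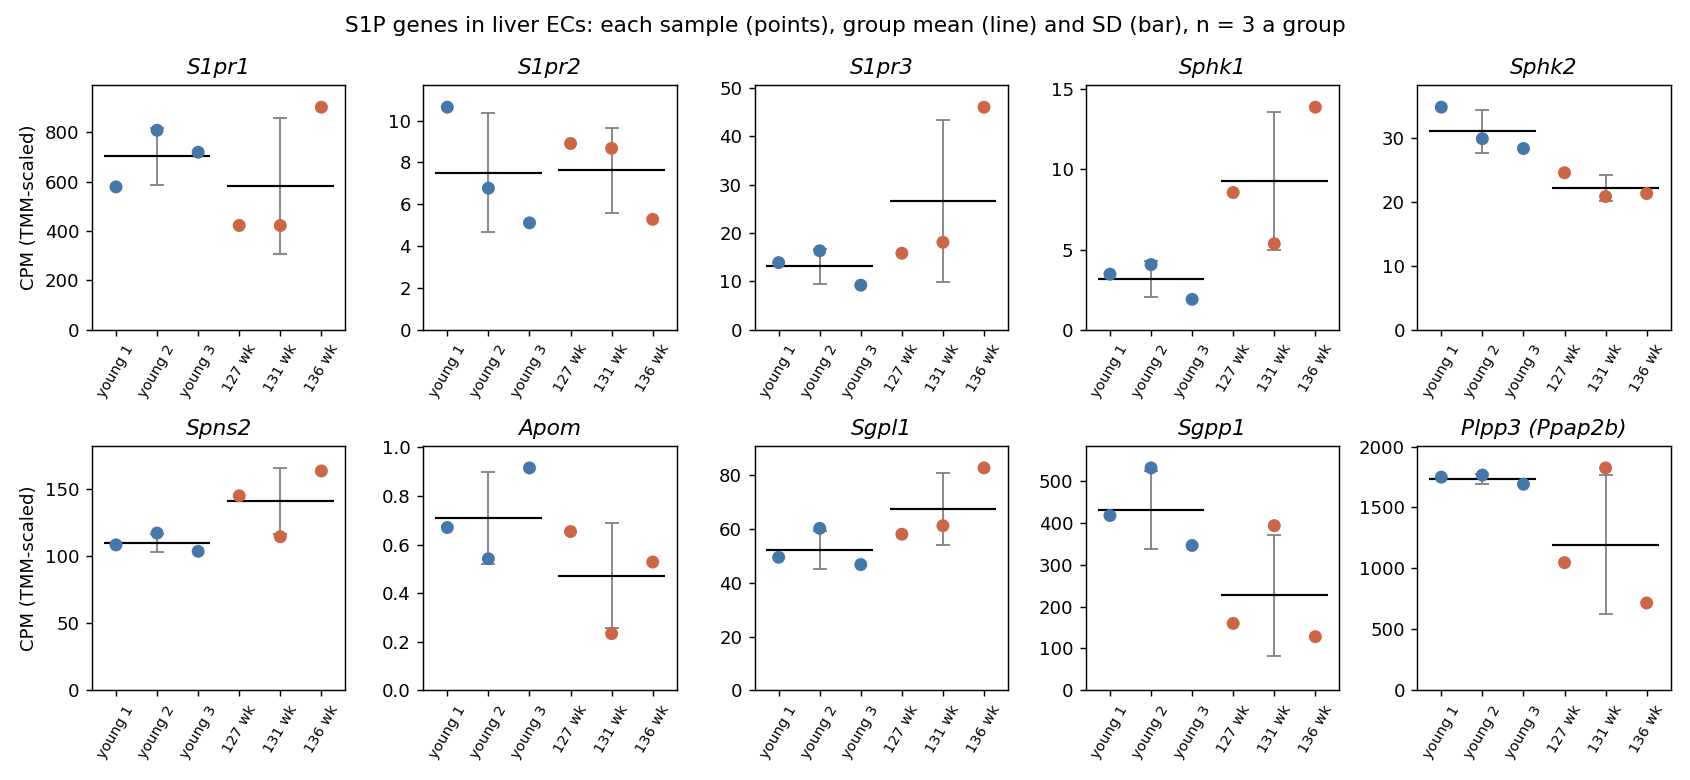
CPM of the 10 S1P genes in each sample (points; young in blue, aged in orange; each axis starts at 0), with group means (lines) and SD (bars). Sphk1 and Sphk2 are the members whose young and aged points do not overlap, and Sgpp1 and Ppap2b have 2 aged points far below the young ones and 1 beside them.

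S1pr1 (mm9 chr3:115413351-115417973, minus strand) was the dominant S1P receptor at both ages. S1pr1 was at 579, 808 and 719 CPM in the young samples and at 422, 422 and 902 CPM at 127, 131 and 136 weeks. The 127-week and 131-week samples lay below every young sample and the 136-week sample above every young sample. The means were 702 ± 116 and 582 ± 277 CPM (SD, n = 3 each; log2 fold change -0.27, SE 0.33, edgeR adjusted p = 0.798). The log2 fold change of S1pr1 was -0.73 without the 136-week sample (edgeR adjusted p = 0.419), -0.080 without the 127-week sample, -0.084 without the 131-week sample and -0.16 without young sample 2. Of the summed FPKM of S1pr1 to S1pr5, S1pr1 made up 94.8 ± 1.55% in young and 93.5 ± 1.52% in aged samples (n = 3 each), a difference smaller than the spread.

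S1pr3 (mm9 chr13:51503987-51518166, plus strand), which couples to Gi, Gq and G12/13, was low in young ECs and highest in the oldest sample. It was at 13.9, 16.3 and 9.21 CPM in young samples and at 15.8, 18.1 and 46.1 CPM at 127, 131 and 136 weeks. The 127-week value lay inside the young range, and the 136-week value stood far above all others. The means were 13.1 ± 3.62 and 26.7 ± 16.8 CPM (log2 fold change 1.02, SE 0.44, edgeR adjusted p = 0.400), and without the 136-week sample the log2 fold change was 0.37. The 136-week sample also had the highest leukocyte sum (449 CPM) and the highest sum of stellate and mural markers, 692 CPM against 127 to 405 CPM in young samples. At 127 weeks that sum was 450 CPM, also above every young sample, while S1pr3 lay inside its young range, and at 131 weeks it was 221 CPM. Most of the sum at 127 and 136 weeks was Reln. This gene was at 69.9 to 181 CPM in young and 351, 109 and 496 CPM in aged samples. Of the 8 markers, 5 had a higher aged mean, all with overlap. Lrat was lower in all aged samples than in all young samples. The share of S1pr3 in the summed receptor FPKM was 1.47%, 1.27% and 0.812% in young and 2.31%, 2.61% and 3.21% in aged samples. These shares did not overlap between the ages (means 1.19 ± 0.339% and 2.71 ± 0.456%), whereas an exact permutation test of 3 against 3 cannot give a p below 0.1. At 127 and 131 weeks S1pr3 was at 3.61 and 4.06 FPKM, against 2.12 to 3.68 FPKM in young samples. S1pr1, most of the receptor sum, was at 146 and 143 FPKM in these 2 aged samples, against 197 to 276 FPKM in young samples.

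S1pr2 (mm9 chr9:20770396-20781237, minus strand) is the receptor linked to opening of the endothelial barrier. It was at 10.6, 6.77 and 5.11 CPM in young and at 8.91, 8.67 and 5.28 CPM in aged samples. The ages overlapped fully, with a log2 fold change of 0.022 (SE 0.35, edgeR adjusted p = 0.987) whose sign turned in 5 of 14 alternative analyses. Among the receptors outside the set, S1pr4, described mainly in lymphoid and other blood cells, was at 17.6, 17.4 and 13.7 CPM in young and at 7.15, 11.9 and 8.85 CPM in aged samples. All aged values of S1pr4 lay below all young values (log2 fold change -0.80, SE 0.25, edgeR adjusted p = 0.291), whereas the leukocyte sum was above the young range at 127 and 136 weeks. S1pr5, known from natural killer cells and oligodendrocytes, had 0, 1 and 6 counts in young and 2, 4 and 7 counts in aged samples and was not tested.

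The kinases Sphk1 and Sphk2, which make S1P in the cytoplasm and in the nucleus and other organelles respectively, had opposite signs in CPM. Sphk1 (mm9 chr11:116392239-116397988, plus strand) had 93, 90 and 60 counts in the young and 249, 138 and 342 counts in the aged samples. In CPM, Sphk1 was at 3.46, 4.06 and 1.89 in young and at 8.56, 5.37 and 13.9 at 127, 131 and 136 weeks. Every aged sample lay above every young sample, in the deposited FPKM as well (0.931 to 2.25 in young and 2.87 to 7.22 in aged samples). The means were 3.14 ± 1.12 and 9.27 ± 4.31 CPM, 2.96-fold apart (log2 fold change 1.57, SE 0.44, edgeR adjusted p = 0.256). DESeq2 gave Sphk1 an adjusted p of 0.0285, which is the only call of a member in any analysis made. The order of Sphk1 over the aged samples was that of the leukocyte sum. At 131 weeks the leukocyte sum (26.7 CPM) was inside the young range and Sphk1 was above it. The part of leukocytes in the Sphk1 values was not tested. Without the 136-week sample the log2 fold change of Sphk1 was 1.16 (edgeR adjusted p = 0.547). Within the 4 libraries with many ribosomal counts the difference of mean log2 CPM for Sphk1 was 1.11, and between the 2 libraries with few it was 1.92.

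Sphk2 (mm9 chr7:52964837-52973372, minus strand) gave different answers in the 2 deposited tables. In CPM it was at 34.9, 30.0 and 28.4 in young and at 24.6, 20.9 and 21.4 in aged samples, all aged below all young. The means were 31.1 ± 3.39 and 22.3 ± 2.03 CPM (log2 fold change -0.48, SE 0.16, edgeR adjusted p = 0.324). In FPKM it was at 12.2, 14.5 and 18.1 in young and at 7.53, 31.4 and 10.7 in aged samples, where the 131-week sample was the highest of all and the ages overlapped. The FPKM means of Sphk2 were 14.9 in young and 16.5 in aged samples, and limma on log2(FPKM + 0.1) and log2(FPKM + 1) gave log2 fold changes of -0.11 and -0.092, neither with an unadjusted p below 0.05. The ratio of CPM to FPKM of Sphk2 varied 4.92-fold between samples, beside a median of 1.03-fold over 13851 genes, of which 5.18% exceeded 1.5-fold. Exons of Sphk2 share 491 bases with Dbp, a circadian transcription factor gene, and 373 bases with Rpl18, a ribosomal protein gene, both on the opposite strand in GENCODE. Dbp was at 12.3, 34.8 and 63.6 CPM in young and at 1.82, 145 and 23.3 CPM in aged samples, and its ranking of the samples matched that of the Sphk2 FPKM except that young sample 1 and the 136-week sample changed places. Whether the counting used the strand is not given in the sources used here, so reads of Sphk2 and Dbp in the shared bases cannot be told apart, and the part of Dbp in either value was not tested. Sphk1 made up 11.0 ± 5.39% of the summed kinase FPKM in young and 28.1 ± 17.3% in aged samples, and the 131-week sample, at 8.38%, lay inside the young range. In CPM, which is not per length, the share of Sphk1 was 9.02%, 11.9% and 6.24% in young and 25.8%, 20.4% and 39.4% in aged samples, without overlap.

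**Figure D3:**
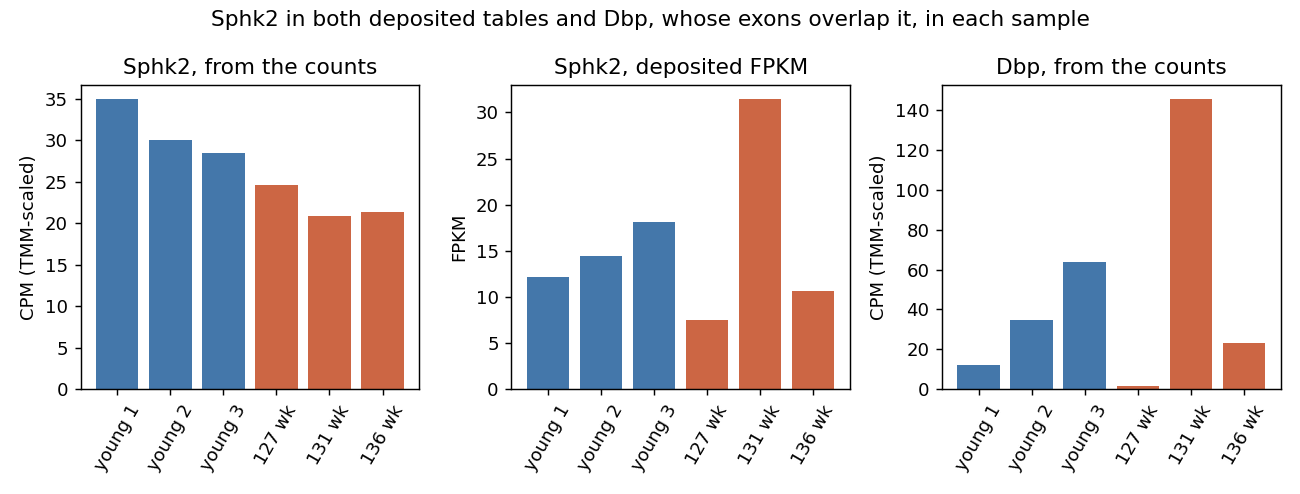
Sphk2 in CPM (left) and in deposited FPKM (middle), and Dbp in CPM (right), with 1 bar for each sample (young in blue, aged in orange; axes start at 0). The 131-week sample is the lowest for Sphk2 in CPM (20.9) and the highest in FPKM (31.4), and it is also the highest for Dbp (145 CPM).

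The exporter Spns2 (mm9 chr11:72265140-72303463, minus strand), through which ECs supply S1P to lymph and in part to blood, was steady in young samples at 109, 117 and 104 CPM. In aged samples it was at 145, 115 and 164 CPM, so that the 131-week sample lay among the young. The means were 110 ± 6.91 and 141 ± 24.8 CPM (log2 fold change 0.36, SE 0.17, edgeR adjusted p = 0.428). Its exons share 131 bases with Mybbp1a on the opposite strand. Apom (mm9 chr17:35265942-35268995, minus strand) was close to the filter, at 18, 12 and 29 counts in young and 19, 6 and 13 counts in aged samples. The ages overlapped, at 0.542 to 0.915 CPM in young and 0.233 to 0.653 CPM in aged samples (log2 fold change -0.58, SE 0.65, edgeR adjusted p = 0.773). With 1 sample left out, the log2 fold change of Apom ranged from -0.89 (without the 127-week sample) to -0.26 (without the 131-week sample). Summed hepatocyte markers were at 275 to 362 CPM in young and 209 to 340 CPM in aged samples. Of the 12 hepatocyte markers, 1 (Trf, 116 to 172 CPM in young and 105 to 243 CPM in aged samples) had a higher aged mean, and 5 were lower in all aged samples than in all young samples.

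Sgpl1 (mm9 chr10:60561390-60610451, minus strand), the lyase that removes S1P for good, was at 49.5, 60.2 and 46.8 CPM in young and at 58.0, 61.2 and 82.6 CPM in aged samples. The 127-week sample lay inside the young range, the 131-week sample just above it and the 136-week sample well above it. The log2 fold change was 0.37 (SE 0.19, edgeR adjusted p = 0.471), and without the 136-week sample it was 0.19. When CPM was scaled to library totals alone, without TMM factors, Sgpl1 and S1pr3 joined Sphk1 and Sphk2 as genes without overlap, 4 of 10 in all, against 17.3% of all genes under that scaling.

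The 2 phosphatases of the set were both low in 2 of the 3 aged samples. Sgpp1 (mm9 chr12:76815235-76836716, minus strand), an enzyme of the endoplasmic reticulum that returns intracellular S1P to sphingosine, was at 417, 531 and 346 CPM in young and at 160, 393 and 128 CPM at 127, 131 and 136 weeks. The 131-week sample lay inside the young range and the other two lay far below it. The means were 431 ± 93.3 and 227 ± 145 CPM, 1.90-fold apart (log2 fold change -0.93, SE 0.42, edgeR adjusted p = 0.426). The log2 fold change of Sgpp1 was -1.58 without the 131-week sample (edgeR adjusted p = 0.0664), -0.64 without the 136-week sample (adjusted p = 0.782) and -0.72 without the 127-week sample (adjusted p = 0.591).

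Ppap2b (mm9 chr4:104829952-104905369, plus strand), a cell-surface lipid phosphatase that dephosphorylates lysophosphatidic acid and S1P outside the cell, was the steadiest member in young ECs. It was at 1749, 1766 and 1691 CPM in young and at 1048, 1824 and 717 CPM in aged samples. The 131-week value was the highest of all 6, and the 127-week and 136-week values were below every young value. The means were 1735 ± 39.3 and 1196 ± 568 CPM (log2 fold change -0.54, SE 0.33, edgeR adjusted p = 0.562), and the log2 fold change of Ppap2b was -0.98 without the 131-week sample (edgeR adjusted p = 0.108) and -0.27 without the 136-week sample (adjusted p = 0.905). Expressed as percent of the young mean, Sgpp1 stood at 37.1%, 91.1% and 29.7% and Ppap2b at 60.4%, 105% and 41.3% at 127, 131 and 136 weeks. The summed sinusoidal markers stood at 38.3%, 63.5% and 37.8% in the same samples. The 127-week and 136-week samples were thus the lowest in all 3 measures, while at 131 weeks the sinusoidal sum was below every young sample and Ppap2b above every young sample. The part of sinusoidal cells in the phosphatase values was not tested.

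**Figure D4:**
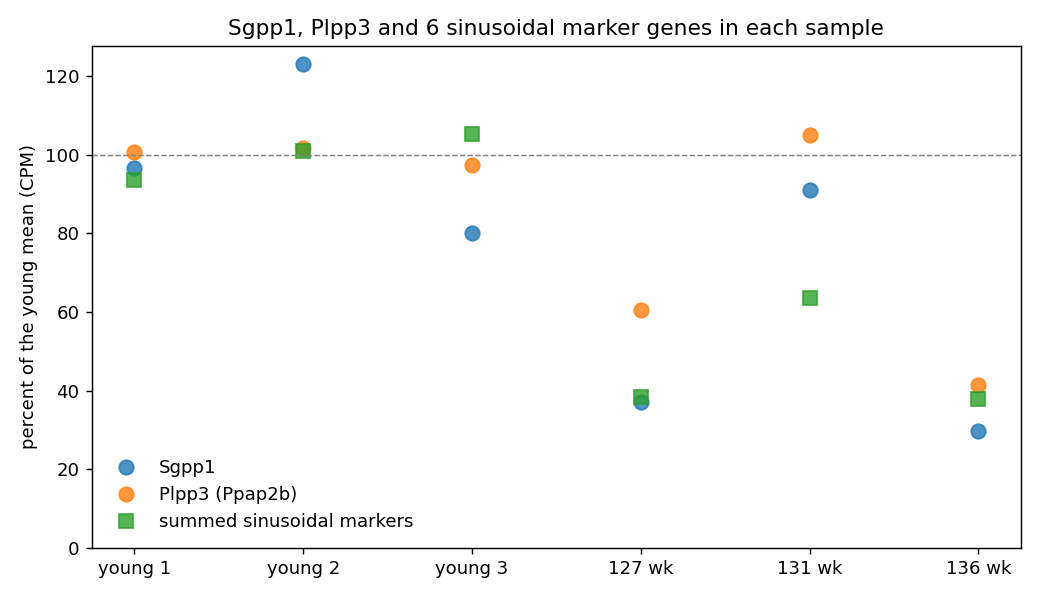
Sgpp1 and Ppap2b (circles) and the sum of 6 sinusoidal marker genes (squares) in each sample, in CPM as percent of the young mean (dashed line). At 127 and 136 weeks all 3 lie at 29.7% to 60.4%, and at 131 weeks Ppap2b lies at 105%, Sgpp1 at 91.1% and the markers at 63.5%.

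Ppap2b, the most abundant member, had close company in its pattern over the 6 samples. By Pearson correlation of log2(CPM + 1), the most alike genes were Zdhhc14, a palmitoyltransferase (r = 0.998), Cd300lg, a receptor of capillary endothelium (r = 0.996), and Npdc1 (r = 0.995). Cd300lg, for example, was at 1094, 1083 and 992 CPM in young and at 625, 1125 and 469 CPM in aged samples. A total of 170 genes had r above 0.95 with Ppap2b. The 6 points share their libraries and 2 of them carry most of the spread, so r is given as a description.

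Of 53 further genes of sphingolipid metabolism and S1P receptor signalling, 47 passed the filter and none was called by edgeR. At an unadjusted p below 0.05 there were 10 of the 47, 5 with a higher and 5 with a lower aged mean, against 12.6% of all genes tested. A further count, that of genes without overlap between the ages, was 13 of the 47, 5 higher and 8 lower, against 17.9% of all genes. The median log2 fold change was -0.057. DESeq2 called 2 of the 47, Cd69 with a higher and Sgms1 with a lower aged mean, against 3.23% of all genes. Among the other S1P phosphatases and transporters, Sgpp2 was at 0.852 to 1.40 CPM in young and 2.17 to 4.26 CPM in aged samples (log2 fold change 1.35, SE 0.44, edgeR adjusted p = 0.310), opposite in sign to its paralogue Sgpp1. Sgpp2 shares 265 exonic bases with Farsb on the opposite strand. Ppap2c (Plpp2), a relative of Ppap2b, was at 4.95 to 8.52 CPM in young and 12.4 to 15.4 CPM in aged samples (log2 fold change 0.94, SE 0.26, edgeR adjusted p = 0.256). Sgpp2 and Ppap2c thus had higher aged values without overlap, whereas Sgpp1 and Ppap2b had lower aged means with overlap.

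Upstream of S1P, all 4 ceramidases tested had lower aged means, as did 7150 of all 14612 genes, and none had a p below 0.05. Acer2, which forms sphingosine in the Golgi, was at 689 to 1634 CPM in young and 711 to 952 CPM in aged samples (log2 fold change -0.49, SE 0.32; -0.13 without young sample 3 and -0.74 without young sample 1), and Asah1, the lysosomal acid ceramidase, at 239 to 249 and 190 to 249 CPM (log2 fold change -0.16, SE 0.15; -0.070 without the 136-week sample and -0.27 without the 131-week sample). Of 13 ceramide synthesis genes tested, 1 had a p below 0.05, Cers6, a ceramide synthase, at 4.32 to 7.22 CPM in young and 7.66 to 15.8 CPM in aged samples (log2 fold change 1.01, SE 0.33). Degs1, the desaturase that completes ceramide, was at 1043 to 1116 CPM in young and 729 to 988 CPM in aged samples (log2 fold change -0.39, SE 0.18). Of 9 genes that exchange ceramide with sphingomyelin, glycolipid or ceramide phosphate, 4 had a p below 0.05, 1 higher and 3 lower, against 12.6% of all genes. Sgms1, a sphingomyelin synthase, was at 210, 313 and 610 CPM in young and 157, 158 and 150 CPM in aged samples (log2 fold change -1.28, SE 0.36, edgeR adjusted p = 0.258; DESeq2 adjusted p = 0.0174). Without young sample 3 the log2 fold change of Sgms1 was -0.75. Its paralogue Sgms2 had the opposite sign, at 1.04 to 2.79 CPM in young and 3.20 to 9.30 CPM in aged samples (log2 fold change 1.59, SE 0.56, edgeR adjusted p = 0.336).

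Downstream of the receptors, 1 of 11 genes of G proteins and their effectors had a p below 0.05, against 12.6% of all genes. It was Gna12, a G protein alpha subunit. Gna12 was at 210 to 220 CPM in young and 144 to 189 CPM in aged samples (log2 fold change -0.39, SE 0.15), and the kinase Rock2 was at 60.2 to 89.4 and 71.1 to 143 CPM. Among 5 genes of receptor control, Cd69, a leukocyte activation antigen that binds S1pr1 and drives its internalisation, had the smallest p of the pathway genes. It was at 1.97, 3.52 and 2.49 CPM in young and at 5.64, 7.39 and 10.9 CPM in aged samples (log2 fold change 1.59, SE 0.36, edgeR adjusted p = 0.235; DESeq2 adjusted p = 0.00570). At 131 weeks Cd69 was above the young range and the leukocyte sum was inside it. The part of leukocytes in the Cd69 values was not tested. Arrb2, a beta-arrestin that uncouples receptors, was at 46.4 to 69.6 CPM in young and at 16.5, 52.4 and 17.4 CPM in aged samples (log2 fold change -1.07, SE 0.46; -1.83 without the 131-week sample), low at 127 and 136 weeks like Sgpp1 and Ppap2b.

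**Figure D5:**
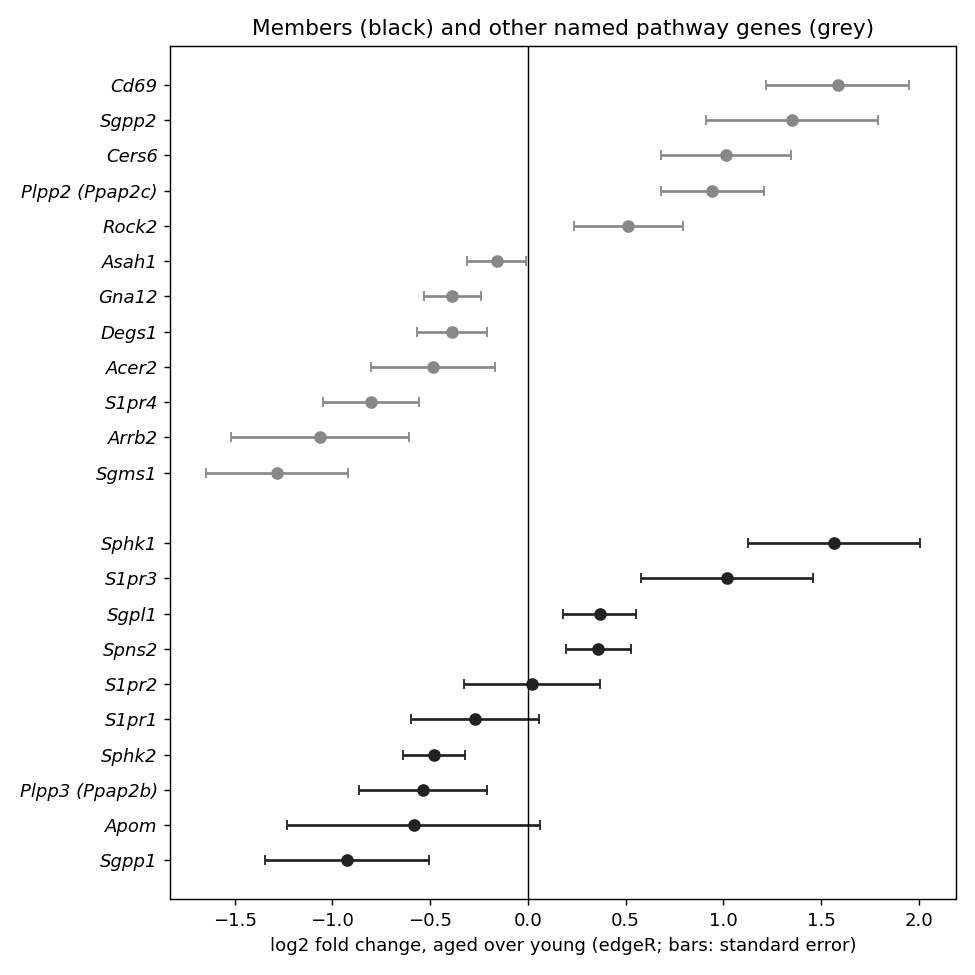
Log2 fold changes of aged over young samples with standard errors (edgeR) for the 10 S1P genes (black, lower block) and 12 named genes of the same pathway (grey, upper block). Among the members Sphk1, at 1.57, is farthest to the right and Sgpp1, at -0.93, farthest to the left, and none of the genes drawn passed the adjusted threshold.

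Within the libraries of many and of few ribosomal counts, taken apart, the signs of the aged minus young difference were the same for 9 of the 10 genes, all but S1pr2 (-0.31 and 0.75 on the log2 scale). For Sgpp1 the 2 differences were -1.07 and -1.11, and for Sphk2 they were -0.60 and -0.20. The pair of libraries with few ribosomal counts holds 1 sample of each age, so its value has no replicate check.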

How the data were processed

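The libraries of 3 young and 3 aged samples of CD31+CD45- liver ECs were used. Per the labels, base calling used CASAVA 1.8.2 and the single-end reads of 75 bases were aligned with TopHat2 2.1.0 (mm9). The authors deposited raw counts, as whole numbers, for 24421 symbols. FPKM values for 24346 symbols were deposited by the authors from Cuffnorm 2.2.1, which scales libraries against each other. The counting program, its annotation and its use of strand are not given in the sources used here. Counts were tested with edgeR 4.0.16 (quasi-likelihood F-test, TMM factors, R 4.3.3) for genes that reached 0.5 CPM in 1 sample or more, a minimum that the study's methods give for their sample maps, without a number of samples. CPM values are TMM-scaled, and standard errors were obtained as the ratio of the log2 fold change to the root of its F statistic. The calling threshold was the study's: an adjusted p under 0.05 with a change of more than 1 on the log2 scale in either direction. The study itself reports genes past this threshold in both directions. Its methods do not name the test that gave its adjusted p-values. A sentence that names edgeR gives that fit's Benjamini-Hochberg adjusted p. Alternatives were DESeq2 1.42.0, limma 3.58.1 (voom with sample quality weights; log2(FPKM + 0.1) and log2(FPKM + 1) for genes with FPKM of at least 0.1 in 1 sample), DESeq2 size factors in edgeR, other filters, a term for the libraries above or below 3% of counts on Lars2 and Rn45s, and leaving out each sample. Differences within those library clusters were taken on log2(CPM + 0.5). The scripts were tested on simulated counts. No pair of the 6 samples agreed within sampling noise (smallest chi-square per degree of freedom 17.3, young samples 1 and 2). Positions are from GENCODE vM1 (NCBIM37, mm9) and promoter windows from RefSeq. The members and the lists of pathway and marker genes were chosen with earlier results of these data known. From the pathway lists the text names S1pr4, S1pr5, Sgpp2 and, of each list, up to 2 genes with the smallest p, and also the 3 genes most alike in pattern to the member with the highest mean FPKM. Ppap2a and Sgms2 are named beside their relatives. A result that this rule would name is not reported here. Cdh5, Pecam1, Kdr, Tek, Ptprc, Reln, Lrat, Trf, Hba-a1, Dbp, Rpl18, Mybbp1a and Farsb are named as markers or overlapping genes. Cholangiocyte markers summed to 5.90 to 21.1 CPM in young and 16.4 to 21.6 CPM in aged samples, and Kupffer cell markers to 23.4 to 39.2 and 6.69 to 89.6 CPM. Platelet and erythroid markers summed to 22.2 to 35.4 and 23.5 to 30.3 CPM. That sum holds nothing for Hba-a1, which had 0 counts in every sample. In FPKM, Hba-a1 was at 67.6 to 224 in young and 50.4 to 175 in aged samples. Large vessel endothelial markers summed to 5407 to 7575 CPM in young and 5348 to 7702 CPM in aged samples.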

Additional observations from a re-analysis of the deposited data

How the results depend on the processing

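No gene was called by edgeR, but DESeq2 called 472 genes with 1 member and gave 4 members an unadjusted p below 0.05 (14.9% of all genes). Limma-voom with sample quality weights called 15 genes, with 4 members and 16 other pathway genes at that unadjusted p (15.4% of all genes). Without a filter on low counts 4 genes and no member were called and 4 members had that unadjusted p (10.9% of all genes), and log2(FPKM + 0.1) and the term for the library cluster gave 2 called genes each. Leaving out each sample in turn gave 0 to 1 called genes, 1 to 5 members with an unadjusted p below 0.05 (1 without young sample 1 and 5 without the 131-week sample, where 8.86% and 16.7% of all genes had such a p), and 4 to 13 other pathway genes (4 without the 136-week sample, 6 without young sample 2 or 3, where 7.78%, 7.64% and 10.9% of all genes had such a p). Members without overlap numbered 1 in FPKM (Sphk1; 18.2% of all genes), and 4 with library totals alone (17.3%) or with totals lacking Lars2 and Rn45s (17.7%; S1pr3, Sphk1, Sphk2, Sgpl1 in both). The sign turned for S1pr2 alone, at -0.070 with limma-voom and between -0.19 and 0.36 with 1 sample left out. The other 9 members kept their sign in every alternative fit that held them (14, or 13 for Apom). Sphk1 lay between 1.02 and 1.84 and Sphk2 between -0.55 and -0.092. The smallest Sphk2 changes were those in FPKM (-0.11 and -0.092), where its unadjusted p was no longer below 0.05. In edgeR the unadjusted p of Sphk2 was also above 0.05 without young sample 1 (0.0889) and without the 131-week sample (0.0572). Median log2 fold changes over all genes were 0.0098 with TMM and 0.0022 with DESeq2 size factors. The causes were not tested. No paired analysis was possible because the aged samples carry ages and no shared replicate numbers. Apom had 6 to 29 counts a sample, and the part of depth in its result was not tested.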
